A study of Vitis vinifera with 11 samples.

Results

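PR1 and PR10.3 are pathogenesis-related genes of grapevine (Vitis vinifera), and they are 2 of the 25771 gene numbers measured in every library. They carry the gene numbers 100258414 (PR1) and 100267074 (PR10.3) in the deposited tables. They were chosen by their RPKM in earlier results of these data, high in leaves and inflorescences and low in tendrils, so their levels by organ are given as a description, with no test. Their course along the nodes and their difference between the picovine lines were not used in that choice and were tested.

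Pathogenesis-related proteins are small proteins that accumulate in plants after infection. PR1 proteins are secreted, belong to the CAP family and are widely used as a marker of the salicylic acid branch of plant defence. PR10 proteins stay in the cytoplasm, belong to the family of the birch pollen allergen Bet v 1 and bind small hydrophobic molecules, and in grapevine they form a group of near-identical copies. Some members of both families are also made in healthy leaves and flowers of various plants.

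The 11 libraries were single-end Illumina mRNA libraries from shoots grown in controlled long days, and the labels record no pathogen or elicitor treatment. Inflorescences were taken at nodes 1, 2 and 3, counted from the apex, from the picovine lines 06C021V0046 and 06C008V0003, with 1 library per line and node (6 in all). The control vine, Pinot Meunier L2, gave tendrils of nodes 1, 2 and 3, with 1 library per node (3 in all). Leaves of the 3 nodes were pooled into 1 library of 06C021V0046 and 1 of Pinot Meunier L2. Picovines are dwarf vines that bear inflorescences where ordinary vines bear tendrils. Organ and genotype changed together between inflorescences and tendrils and cannot be told apart there, except through the leaf pools. Both pools are labelled as leaves facing inflorescences, but the protocol lists tendrils for Pinot Meunier L2, and it is not certain what its leaves faced.

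The tendril libraries held 7.36 to 15.18 M reads (M, 1000000), the inflorescence libraries 11.36 to 14.55 M, and the leaf libraries 9.21 and 14.99 M. The floral genes MADS9, TM6, AP3, AG and MADS2 had at least 61.1 RPKM (reads per kilobase of gene and 1 M mapped reads) in all 6 inflorescence libraries and at most 3.85 RPKM in the other 5. AP1 stood at 141 ± 17.8 RPKM in inflorescences (SD, n = 6), 193 ± 93.2 in tendrils (n = 3) and 1.87 ± 1.65 in leaves (n = 2). Of the leaf genes, NDHM was highest in the leaf pools, at 36.3 and 27.5 RPKM against at most 12.1 elsewhere, whereas PSBP1 had 175 to 868 RPKM in tendrils and 337 and 637 in leaves and so did not mark leaves.

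PR1 was among the most abundant transcripts of leaves and inflorescences. The leaf pool of 06C021V0046 had 3338 RPKM (20590 reads), which ranked 4 among the 25771 genes of that library, and the leaf pool of Pinot Meunier L2 had 848 RPKM (8517 reads, rank 42). In the inflorescences of 06C021V0046, PR1 stood at 855, 496 and 1609 RPKM at nodes 1, 2 and 3. In those of 06C008V0003 it stood at 823, 579 and 793 RPKM. Every inflorescence library placed PR1 between rank 30 and rank 133.

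In the 3 tendril libraries PR1 stood near the middle of the ranked genes. Node 1 had 3.91 RPKM from 26 reads (95% interval 2.55 to 5.73), node 2 had 3.24 RPKM from 16 reads (1.85 to 5.27) and node 3 had 4.62 RPKM from 47 reads (3.40 to 6.15). These intervals cover counting error only, and they overlap one another. Between 43.3 and 49.0% of genes lay below PR1 in a tendril library, against at least 99.5% in an inflorescence library.

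The organ means of PR1 were 859 ± 395 RPKM in inflorescences (SD, n = 6), 2093 ± 1761 in leaves (n = 2) and 3.93 ± 0.688 in tendrils (n = 3). The inflorescence mean was 219-fold and the leaf mean 533-fold that of tendrils. The lowest inflorescence library had 107-fold the RPKM of the highest tendril library, and the lowest leaf pool 184-fold. Across genotypes, leaves and inflorescences did not separate, since the Pinot Meunier L2 leaf pool lay at the level of the node 1 inflorescences. Within 06C021V0046, the 1 leaf pool (3338 RPKM) lay above every inflorescence library (496 to 1609 RPKM). In these bulk libraries, fewer cells of a type and less RNA per cell cannot be told apart.

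**Figure D1:**
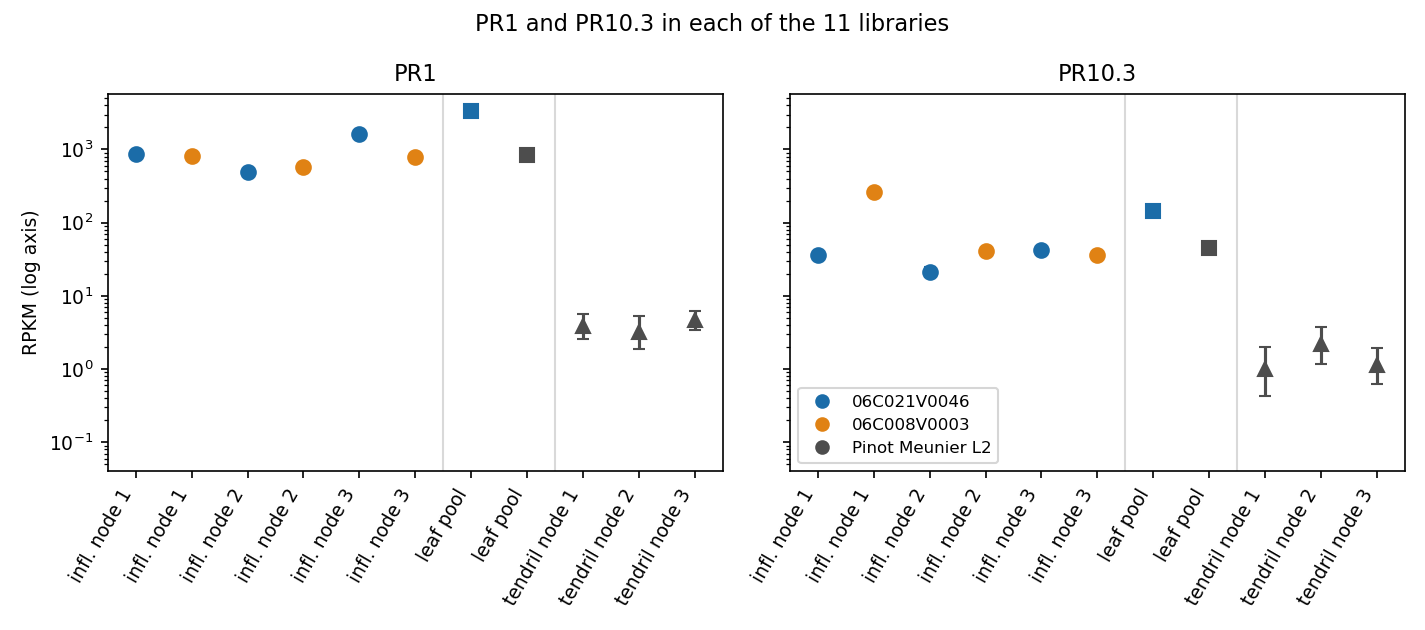
RPKM on a log axis of PR1 (left) and PR10.3 (right) in each of the 11 libraries, 1 point per library, coloured by genotype. Bars are 95% Poisson counting intervals and are hidden by the points where reads were many. For PR1 the tendril points lie between 3.24 and 4.62 RPKM and all others at 496 RPKM or above, and for PR10.3 they lie between 1.01 and 2.20 and all others at 21.3 or above.

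PR10.3 had the same order of tendrils against the other organs, at lower levels. In the inflorescences of 06C021V0046 it stood at 35.9, 21.3 and 42.8 RPKM at nodes 1, 2 and 3, from 347, 194 and 492 reads. In those of 06C008V0003 it stood at 259, 40.7 and 36.6 RPKM, from 3027, 424 and 415 reads. Of these 6 libraries, 5 lay between 21.3 and 42.8 RPKM and node 1 of 06C008V0003 stood alone above them. The leaf pools had 143 RPKM in 06C021V0046 (1056 reads) and 44.5 RPKM in Pinot Meunier L2 (535 reads).

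Tendrils held few PR10.3 reads. Node 1 had 1.01 RPKM from 8 reads (95% interval 0.434 to 1.98), node 2 had 2.20 RPKM from 13 reads (1.17 to 3.77) and node 3 had 1.15 RPKM from 14 reads (0.629 to 1.93). The intervals overlap, so no order among the tendril nodes was detectable at this depth. The organ means were 72.8 ± 91.7 RPKM in inflorescences (SD, n = 6, median 38.6), 93.8 ± 69.7 in leaves (n = 2) and 1.45 ± 0.653 in tendrils (n = 3).

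The inflorescence mean of PR10.3 was 50.1-fold and the leaf mean 64.6-fold the tendril mean. The lowest inflorescence library had 9.67-fold the RPKM of the highest tendril library. Leaves and inflorescences overlapped, with the Pinot Meunier L2 leaf pool close to the lower 5 inflorescence libraries. PR10.3 ranked between 287 and 7042 in inflorescences, 796 and 3086 in the leaf pools, and between 15595 and 17394 in tendrils.

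The low tendril levels were also seen within 1 genotype. In Pinot Meunier L2, the leaf pool had 216-fold the mean tendril RPKM of PR1 and 30.6-fold that of PR10.3. In 06C021V0046, the leaf pool had 3.38-fold the mean inflorescence RPKM of PR1 and 4.29-fold that of PR10.3. Between the leaf pools, 06C021V0046 had 3.94-fold the PR1 and 3.21-fold the PR10.3 of Pinot Meunier L2, with 1 library each and so no replicate check.

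On the log2(RPKM + 1) scale, inflorescences minus tendrils came to 7.35 for PR1 and 4.37 for PR10.3, and leaves minus tendrils to 8.43 and 5.08. Inflorescences minus leaves came to -1.08 and -0.71. In a fit with genotype as a block, the leaf pools are the one link between inflorescences and tendrils. In it, inflorescences minus tendrils came to 5.52 for PR1 and 2.12 for PR10.3, and inflorescences minus leaves to -1.92 and -2.13. Without the block, inflorescences minus leaves rested on the leaf pools: it was -0.088 for PR1 and 0.12 for PR10.3 without the pool of 06C021V0046, and -2.06 and -1.54 without that of Pinot Meunier L2.

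PR1 exceeded PR10.3 in all 11 libraries, comparing RPKM, which is per length. The ratio of PR1 to PR10.3 was 23.8, 23.3 and 37.6 in the inflorescences of 06C021V0046 at nodes 1, 2 and 3, and 3.17, 14.3 and 21.7 in those of 06C008V0003. It was 23.3 in the leaf pool of 06C021V0046, 19.1 in that of Pinot Meunier L2, and 3.89, 1.47 and 4.02 in the tendrils. The ratio in node 1 of 06C008V0003 thus fell among those of tendrils, although both genes were high in that library.

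Along the inflorescence nodes, neither gene showed a linear trend beyond the spread between libraries. Both lines had less PR1 at node 2 than at node 1 or 3. In 06C021V0046, node 1 had 1.72-fold and node 3 had 3.24-fold the RPKM of node 2, and in 06C008V0003 they had 1.42-fold and 1.37-fold. The linear slope of PR1 was 0.21 ± 0.31 log2 per node (SE; 95% interval -0.48 to 0.91; adjusted p = 0.663, limma with Benjamini-Hochberg adjustment over the 19761 genes tested). That slope rested on the node 3 library of 06C021V0046, without which it was -0.13.

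For PR10.3 the lines took different courses. In 06C008V0003, node 1 had 6.38-fold the RPKM of node 2, and node 3 had 0.900-fold that of node 2. In 06C021V0046, node 1 had 1.69-fold and node 3 had 2.01-fold the RPKM of node 2. The slope of PR10.3 was -0.64 ± 0.44 log2 per node (SE; 95% interval -1.60 to 0.33; adjusted p = 0.330, limma), and 0.12 without the node 1 library of 06C008V0003. Neither gene was called, where 15% of all genes tested were called in 1 direction or the other (adjusted p under 0.05).

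**Figure D2:**
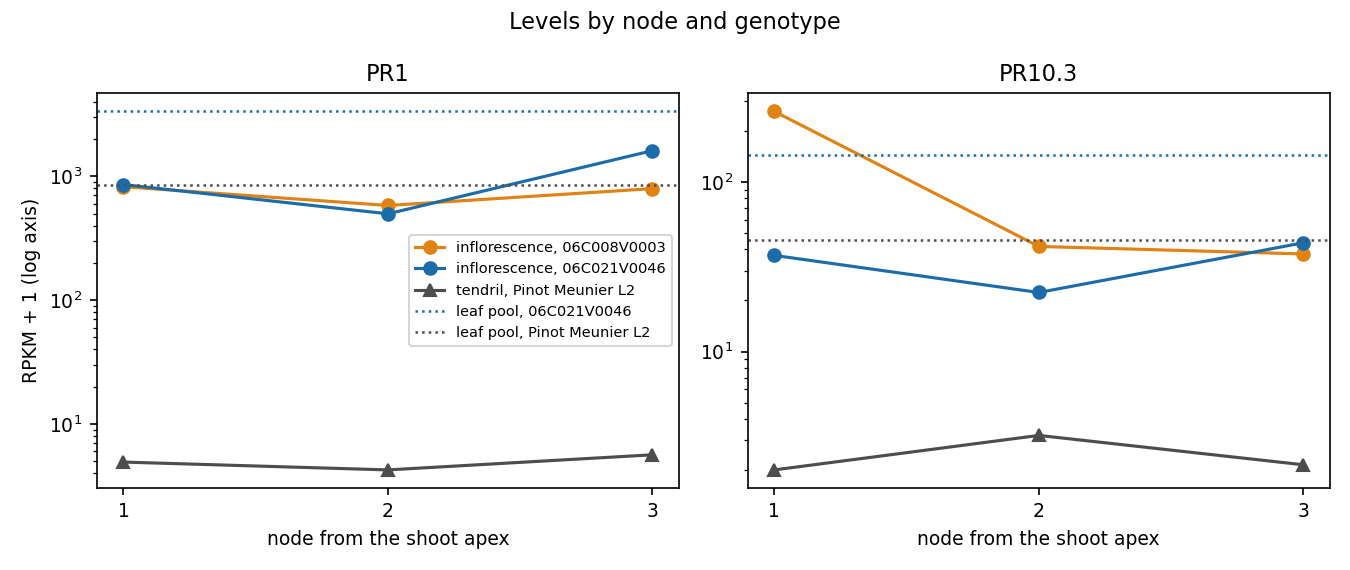
RPKM + 1 on a log axis of PR1 (left) and PR10.3 (right) against node number, 1 point per library, with lines joining the nodes of a genotype and organ. Dotted lines mark the leaf pools. PR1 is lowest at node 2 in both picovine lines, and PR10.3 of 06C008V0003 is at 259 RPKM at node 1 and 40.7 RPKM at node 2.

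The dip at node 2 was tested after its values had been seen, as node 2 minus the mean of nodes 1 and 3 in the 6 inflorescence libraries with line as a term. For PR1 it was -0.86 ± 0.24 on the log2 scale (SE; 95% interval -1.44 to -0.28; adjusted p = 0.124, limma), in the same direction in 2 of 2 lines. For PR10.3 it was -1.05 ± 0.52 (SE; -2.29 to 0.19; adjusted p = 0.279, limma), with node 2 the lowest in 06C021V0046 only. In 06C008V0003, PR10.3 had 40.7 RPKM at node 2 and 36.6 RPKM at node 3. Neither gene was called, where 0.228% of genes were. A fit that leaves out 1 library has 1 library left at that node. Without the node 1 library of 06C021V0046, node 1 is that of 06C008V0003 alone, where PR10.3 stood apart at 259 RPKM. Without the node 3 library of 06C008V0003, PR1 was called (-1.14, adjusted p = 0.0419, limma), and without the node 1 library of 06C021V0046, PR10.3 was called (-1.67, adjusted p = 0.0199, limma). In those fits 2.46% and 2.8% of all genes were called, 487 and 553 genes against 45 with all 6 libraries.

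In tendrils the slopes were 0.10 ± 0.44 log2 per node for PR1 (SE; 95% interval -0.88 to 1.08; adjusted p = 1, limma) and 0.05 ± 0.62 for PR10.3 (-1.31 to 1.42; adjusted p = 1, limma). With 1 tendril library per node, limma called 0% of all genes (0 genes; 971 had an unadjusted p under 0.05), and without the node 1 or node 3 library the slopes ran from -0.21 to 0.41 for PR1 and from -0.57 to 0.68 for PR10.3. The inflorescence slope minus the tendril slope was 0.12 ± 0.54 for PR1 and -0.69 ± 0.76 for PR10.3 (SE; adjusted p = 1.00 for both, limma), where 0.0152% of genes were called. The 95% intervals ran from -1.08 to 1.32 and from -2.36 to 0.99. A slope lower in inflorescences by 1 log2 unit per node was within them for both genes. A slope higher by 1 was within that of PR1 only.

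By node, the mean of the inflorescence libraries was 215, 166 and 260-fold the tendril level of PR1 at nodes 1, 2 and 3. For PR10.3 the ratios were 147, 14.1 and 34.5. The tendril level of both genes was lower at each of the 3 nodes.

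The picovine lines did not differ in PR1 beyond the scatter of their difference from node to node. The line 06C021V0046 averaged 987 ± 568 RPKM over its 3 nodes (SD) and 06C008V0003 averaged 732 ± 133. The ratio of 06C021V0046 to 06C008V0003 was 1.04 at node 1, 0.856 at node 2 and 2.03 at node 3. The line difference with node as a factor was 0.28 ± 0.23 on the log2 scale (SE; 95% interval -0.27 to 0.83; adjusted p = 0.393, limma), and -0.08 without either node 3 library.

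PR10.3 averaged 33.3 ± 10.96 RPKM in 06C021V0046 and 112 ± 127 in 06C008V0003 (SD, n = 3 each). The ratio of 06C008V0003 to 06C021V0046 was 7.23 at node 1, 1.91 at node 2 and 0.856 at node 3, so the direction held at 2 of 3 nodes. The line difference, 06C021V0046 minus 06C008V0003, was -1.17 ± 0.49 on the log2 scale (SE; 95% interval -2.34 to 0.00073; adjusted p = 0.127, limma). Without either node 1 library it was -0.34. Neither gene was called between the lines, where 19.7% of genes were.

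The node slope of PR10.3 was larger in 06C021V0046 than in 06C008V0003 by 1.52 ± 0.53 log2 per node (SE; 95% interval 0.217 to 2.82), which did not pass adjustment over all genes (adjusted p = 1, limma). For PR1 the slope difference was 0.48 ± 0.49 (SE; -0.72 to 1.68; adjusted p = 1, limma). Without the node 1 library of 06C008V0003 the difference for PR10.3 was 0.27, and without the node 3 library of 06C021V0046 that for PR1 was -0.76. In this contrast limma called 0% of all genes (0 genes; 432 had an unadjusted p under 0.05).

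The other pathogenesis-related genes with a symbol in the RefSeq table numbered 15, and all 15 passed the filter on low values. They are PR-1, PR10.2, PR10.4 to PR10.9, the beta-1,3-glucanase G1, the chitinases CHI1B, CHI4C, CHI4D and chit1a, and the thaumatin-like genes TL1 and TL3. Between inflorescences and tendrils, 10 of the 15 were higher in inflorescences and 0 lower, where 22.5% of all genes were called higher and 11.6% lower. Their median difference was 1.15 against 0.20 over all genes (log2). Between leaves and tendrils, 10 were higher in leaves and 0 lower, where 9.71% of all genes were called higher and 2.89% lower, with a median of 3.39 against 0.14. Between inflorescences and leaves, 8 were lower in inflorescences and 0 higher, where 7.55% of all genes were called lower and 5.39% higher, with a median of -1.88 against 0.01. PR-1 passed the filter only through the 2 leaf pools, and PR10.5, PR10.6 and PR10.9 only through inflorescences, so they could pass only by being high there. Among the other 11 genes the counts were 8 higher in inflorescences than in tendrils, 9 higher in leaves than in tendrils and 7 lower in inflorescences than in leaves.

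With genotype as a block the count higher in inflorescences than in tendrils was 0 of 15 (limma; 2 at an unadjusted p under 0.05), where 77 of 19761 genes were called in all. Without the tendril library of node 1 or of node 3 it was 4. Those 2 fits called 2248 and 2232 of all genes higher in inflorescences, against 4445 with all 11 libraries. Of all genes, 34.1% were called between inflorescences and tendrils in 1 direction or the other. The share of these that were higher was 66% as deposited, 53% with quantiles equalized and 49.2% with median-ratio scaling. Between leaves and tendrils 12.6% of genes were called, and these shares were 77, 58.4 and 62.6%. Between inflorescences and leaves 12.9% were called. The comparisons share the tendril and leaf libraries, so their counts are not independent of one another.

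PR-1, a second gene of the PR1 family and 4 genes from PR1 in the RefSeq gene order, was low in inflorescences as well as in tendrils. It stood at 17.6 and 9.18 RPKM in the leaf pools, with 06C021V0046 the higher, from 101 and 86 reads. It had at most 0.566 RPKM in the 6 inflorescence libraries, on 2 to 5 reads each, and at most 0.652 RPKM in tendrils. Leaves minus tendrils came to 3.49 ± 0.33 log2 (SE). PR-1 entered the tests only through the 2 leaf pools, so this difference is a description and no p-value is given for it. Between inflorescences and tendrils the difference was 0.22 (95% interval -0.34 to 0.78; adjusted p = 0.526, limma), and -0.64 with the genotype block.

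PR10.2 came closest to PR10.3 among the PR10 genes. It stood at 149, 104 and 368 RPKM at nodes 1, 2 and 3 of 06C021V0046 and at 480, 145 and 154 RPKM in 06C008V0003. The leaf pools had 823 and 286 RPKM, and the tendrils 13.8, 24.4 and 23.3 RPKM, below every other library. Inflorescences were higher than tendrils by 3.26 ± 0.51 log2 (SE; adjusted p = 0.00131, limma), and leaves than tendrils by 4.54 ± 0.66 (adjusted p = 0.00158, limma). The former call ended with the genotype block (adjusted p = 0.705).

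PR10.7 was abundant in all organs. It stood at 188 to 1191 RPKM in inflorescences, 97.4 and 252 RPKM in the leaf pools and 15.4 to 216 RPKM in tendrils, so its organs overlapped. It was higher in inflorescences than in tendrils by 2.87 ± 0.70 log2 (SE; adjusted p = 0.0110, limma; 0.793 with the block). Leaves minus tendrils came to 0.95 (95% interval -1.05 to 2.95; adjusted p = 0.572, limma), and to -0.21 without the node 2 tendril library.

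The other 5 PR10 genes were at most at 9.02 RPKM in any library. PR10.4 and PR10.8 were higher in leaves than in tendrils, with leaf means of 5.65 ± 0.938 and 4.95 ± 2.01 RPKM (SD, n = 2) against 0.0697 and 0.113 RPKM in tendrils, on 1 and 2 tendril reads in all. On the log2 scale these differences were 2.63 ± 0.24 and 2.38 ± 0.39 (SE; adjusted p = 0.000103 and 0.00283, limma; for PR10.8 0.0504 when only tendrils and leaves were fitted). PR10.5, PR10.6 and PR10.9 had at most 0.137 RPKM in leaves, and leaves minus tendrils came to -0.05, -0.22 and 0.09 for them (adjusted p at least 0.771, limma).

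Several low PR10 genes had more RPKM at node 3 than at node 1 of the inflorescences. Of the 15 genes, 5 rose with the node and 1 fell, where 6.34% of all genes rose and 8.64% fell. PR10.5 and PR10.6 passed the filter only through the 2 node 3 inflorescence libraries, where they are high, and PR10.9 only through inflorescences. Among the other 11 genes 2 rose and 1 fell. PR10.5 had 0.233, 0.248 and 9.02 RPKM at nodes 1, 2 and 3 of 06C021V0046 and 0.193, 0.433 and 7.26 RPKM in 06C008V0003 (slope 1.45 ± 0.26 log2 per node, SE). PR10.6 had a slope of 0.91 ± 0.19 per node and stood at 3.33 and 1.91 RPKM at node 3. The slopes of PR10.5 and PR10.6 are descriptions, since only their node 3 values let these genes enter the tests. The slope of PR10.9 (0.60 log2 per node) is a description too. It reached 1 RPKM only at node 3 of both lines and at node 2 of 06C021V0046. The slopes of PR10.4 and the chitinase CHI4C passed the test (0.47 and 3.17 log2 per node), and the chitinase CHI1B fell by 0.92. Without either node 3 library, PR10.4, PR10.5, PR10.6 and PR10.9 were no longer called, and the count of rising genes was 1. Their slopes were then 0.41 and 0.51, 1.21 and 1.33, 0.69 and 0.94, and 0.54 and 0.66 in that order, and over all genes those fits called 153 and 217 genes against 2960. The calls of CHI1B and PR10.4 ended in 10 and 6 of 19 alternatives.

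**Figure D3:**
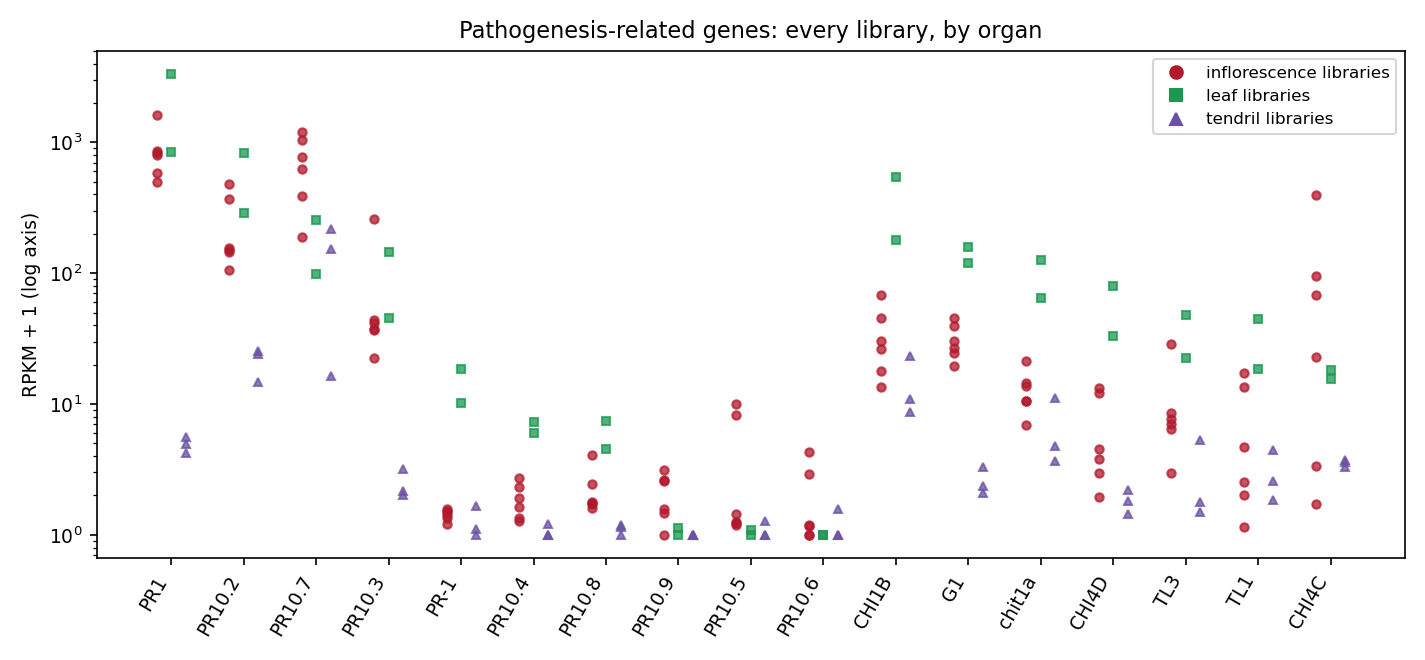
RPKM + 1 on a log axis of PR1, PR10.3 and the other 15 pathogenesis-related genes, 1 point per library, with inflorescences as circles, leaves as squares and tendrils as triangles. PR1, PR10.2, PR10.3 and G1 show tendril points below all others. So do PR10.4 and PR10.8 at low levels, with at most 0.209 and 0.194 RPKM in tendrils. PR10.7 overlaps and PR-1 is high only in leaves.

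Outside the PR1 and PR10 families, G1, CHI4D and CHI1B had the largest differences between leaves and tendrils. G1, a beta-1,3-glucanase that cleaves callose and fungal wall glucans, stood at 30.1 ± 9.78 RPKM in inflorescences, 158 and 118 RPKM in the leaf pools and 1.58 ± 0.641 in tendrils. It was higher than in tendrils by 3.56 ± 0.29 log2 in inflorescences and by 5.77 ± 0.37 in leaves (SE; adjusted p = 2.93e-05 and 1.73e-05, limma), and the former reached 0.0678 with the genotype block. CHI1B averaged 359 ± 256 RPKM in leaves and 13.3 ± 7.86 in tendrils, a difference of 4.57 ± 0.49 log2 (SE; adjusted p = 0.00033, limma; 0.0654 when only tendrils and leaves were fitted). CHI4D averaged 55.8 ± 33.2 and 0.818 ± 0.380 RPKM, a difference of 4.85 ± 0.77 (SE; adjusted p = 0.00257, limma; 0.0515 with the block).

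Of the salicylic acid genes searched, only EDS1, WRKY2 and WRKY20 had a matching symbol. EDS1, a lipase-like protein that acts upstream of salicylic acid accumulation, stood at 10.35 to 30.9 RPKM in inflorescences (median 14.9), 68.6 and 63.6 RPKM in the leaf pools and 7.87 ± 1.98 in tendrils. It was higher in leaves than in tendrils by 2.94 ± 0.31 log2 (SE; adjusted p = 0.000312, limma) and higher in inflorescences than in tendrils by 0.97 ± 0.24 (adjusted p = 0.0122, limma; 0.693 with the block and up to 0.109 without the tendril library of node 1 or 3). Of the 3 genes, 1 was higher and 1 lower in inflorescences than in tendrils, where 22.5% of all genes were called higher and 11.6% lower, and 1 was higher and 0 lower in leaves than in tendrils (9.71% and 2.89%). WRKY2, a transcription factor, had 0.477 to 2.99 RPKM in inflorescences, 3.11 and 6.05 in the leaf pools and 0.819 to 6.07 in tendrils, so its organs overlapped. Its inflorescences minus tendrils came to -0.80 log2 (adjusted p = 0.0364, limma), and the call ended in 8 of 17 alternatives: with the block (-0.037, adjusted p = 0.987), without the node 2 tendril library (adjusted p = 0.129) and without any 1 of the 6 inflorescence libraries (adjusted p from 0.0579 to 0.0677).

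The genes whose pattern was most like that of each member were ranked by Pearson correlation of log2(RPKM + 1) over the 11 libraries, among 14527 genes averaging 5 RPKM or more. These correlations are descriptions, and they include the gap between tendrils and the other organs by which the members were chosen. For PR1 the first 2 locus numbers were LOC100249800 (r = 0.985) and LOC100249006 (r = 0.985), both low-level genes with means of 6.73 and 8.18 RPKM in inflorescences. The named genes were G1 (0.946), the gibberellin receptor gene GID1A (0.945), PR10.2 (0.943), PR10.3 (0.927, rank 106) and the O-methyltransferase gene OMT2.1 (0.889). Within the 6 inflorescence libraries, PR1 and PR10.3 had r = 0.22.

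For PR10.3 the first 2 were LOC100256795 (r = 0.983; 0.997 within the 6 inflorescence libraries) and LOC100261887 (0.970; 0.988). The named genes were PR10.2 (0.964, rank 5), PR1 (0.927, rank 32), G1 (0.874), OMT2.1 (0.872) and HGGT (0.867), the last an enzyme of tocotrienol synthesis.

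The genes leading that ranking lie beside PR10.3 in the RefSeq gene order, which was examined after the ranking had been seen. PR10.8, PR10.9, PR10.7, PR10.6, PR10.5, PR10.4, PR10.2 and PR10.3 follow one another within 11 genes. LOC100261887 and LOC100256795 are the next genes after PR10.3, LOC100244758 lies between PR10.2 and PR10.3, and the RefSeq table gives these 3 no symbol. In node 1 of 06C008V0003, where PR10.3 had 259 RPKM, LOC100261887 had 92.7, LOC100256795 had 99.9, LOC100244758 had 63.2 and PR10.2 had 480 RPKM, each its highest value in inflorescences. LOC100256795 ran at 25.9 to 38.5% of the PR10.3 level in the 6 inflorescence libraries at 37.3 and 45.6% in the leaf pools, and at 77.5, 15.9 and 36.9% in the tendrils of nodes 1, 2 and 3, where both were low.

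LOC100251668 and LOC100246525, 3 and 4 genes after PR10.3, had 11.7 and 21.4 RPKM in that library and at most 3.50 and 4.71 RPKM in the other inflorescences.

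The likeness did not extend along the whole row of genes. LOC100258588, 6 genes after PR10.3, had 14.3 to 20.1 RPKM in all 11 libraries. How reads matching several genes were counted is not given in the sources used here. The values of PR10.3 and of any near-identical gene are therefore uncertain as to which gene the reads came from. No sequences were compared, so whether these neighbours are copies of PR10.3 was not tested. The part of shared reads in their likeness was not tested either.

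**Figure D4:**
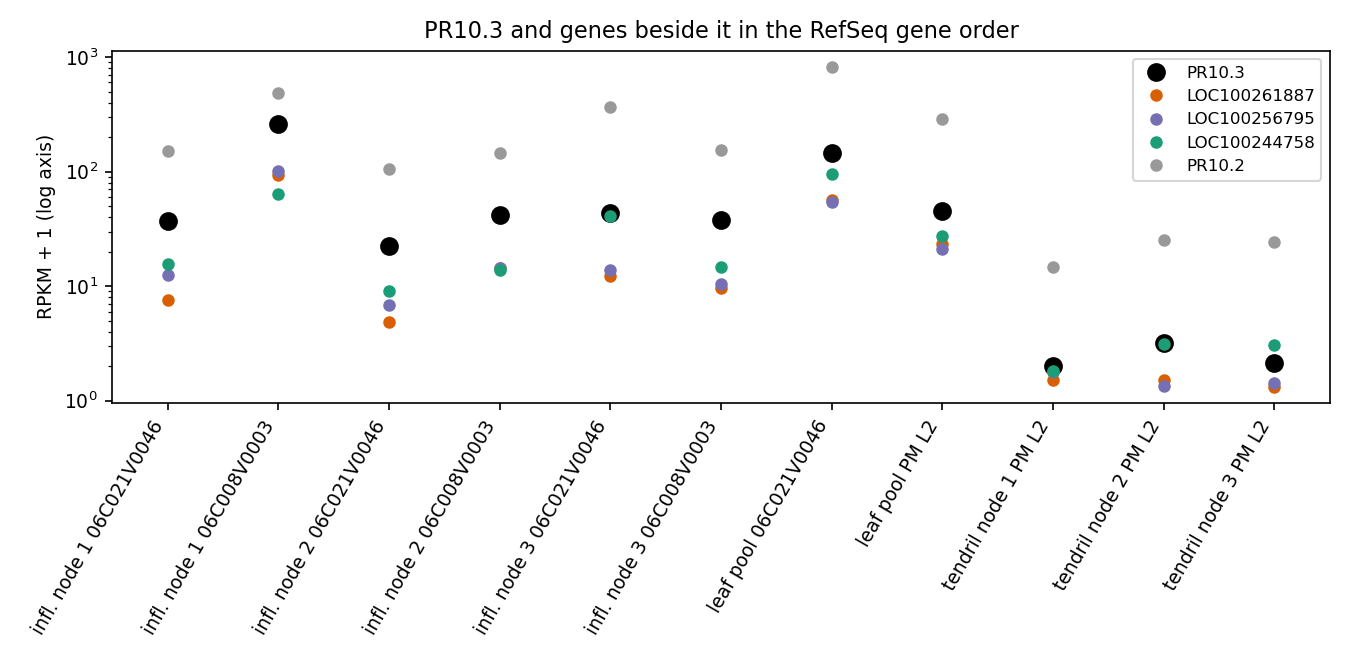
RPKM + 1 on a log axis of PR10.3 (black) and of PR10.2, LOC100244758, LOC100261887 and LOC100256795, which lie beside it in the RefSeq gene order, in each of the 11 libraries. PR10.3 and the 3 unnamed genes are high in node 1 of 06C008V0003 and in the leaf pool of 06C021V0046, and low in all 3 tendril libraries.

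LOC100247990, 6 genes before PR1, had 5.52 RPKM in node 3 of 06C021V0046 and 1.28 to 2.08 RPKM in the other 5 inflorescence libraries, 12.5 and 2.47 RPKM in the leaf pools and no read in tendrils. LOC100263556, 2 genes after PR1, had 60.2 and 38.2 RPKM in the leaf pools and 9.30 RPKM in node 3 of 06C021V0046. It had 0.705 to 3.61 RPKM in the other 5 inflorescence libraries. PR1 was likewise highest among inflorescences in node 3 of 06C021V0046, and highest of all in the leaf pool of that line. LOC100253281, 3 genes before PR1, was highest among inflorescences in node 1 of 06C008V0003, at 5.06 RPKM against 4.33 RPKM in node 3 of 06C021V0046. PR-1 had 2 to 5 reads in each inflorescence library, too few to place a peak.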

How the data were processed

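The members and gene lists were chosen with earlier results of these data known. RPKM values per gene number and library were deposited by the authors, a unit taken from their file labels. Bowtie 0.12.7 and TopHat 1.2.0 are named in the submitters' processing notes, and the genome build, annotation and counting tool are not given in the sources used here. The RefSeq table of ASM3070453v1, used for names and gene order, held 18647 gene numbers (72.4%). Depth and reads were worked back from the steps of the RPKM values (tolerance 0.01 read). The 95% intervals are exact Poisson intervals for counting error, without molecular identifiers.

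Values were tested as log2(RPKM + 1) with limma 3.58.1 (R 4.3.3). Of all genes, 19761 reached 1 RPKM in 2 or more libraries and entered the tests. The log2 scale understates changes of low genes. The model held 3 organ means at node 2 and a linear node slope in inflorescences and in tendrils. The lines were compared in the 6 inflorescence libraries with node as a factor. P-values are two-sided, adjusted by Benjamini-Hochberg and called under 0.05. Replicates of a node were different lines, so p-values measure only the spread between these samples. The replicate number marks the line, and the line difference correlated across genes between nodes 1 and 2 (0.629), 1 and 3 (0.546) and 2 and 3 (0.689), so the replicate block (genotype) was used as the paired fit. Alternatives were the pseudocount, the filter, 2 scalings, each library left out and the block.

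Named genes were the members, the listed genes of the PR1 and PR10 families, the 3 others with the largest difference between leaves and tendrils, up to 3 genes of the salicylic acid search, and per member the 5 named genes and 2 locus numbers most like it. Other genes, such as neighbours, were named after their values were seen.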

Additional observations from a re-analysis of the deposited data

Results flagged for a closer look

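In each of 29 sets of 6 inflorescence libraries (PR1, PR10.3, the 15 other listed genes, the 3 genes of the salicylic acid search and 9 neighbours), the highest and lowest library were checked by the gap to the nearest other, as a share of the whole range, against Dixon's 95% critical value. Of the 29 sets, 12 stood apart, all at the high end. The check used RPKM without logs, was not repeated on the log2 scale, and took the 6 libraries as alike. They differ in node and line, so the usual chance rate of about 1 in 20 groups does not apply. The neighbours were also picked after their values were seen, and genes that vary together are not separate checks. CHI4C, flagged below, also had a slope of 3.17 log2 per node. In node 3 of 06C021V0046, PR1 stood apart with 1609 RPKM, TL3 with 27.7 RPKM, CHI4C with 398 RPKM, and the PR1 neighbours LOC100247990 with 5.52 RPKM and LOC100263556 with 9.30 RPKM. In node 1 of 06C008V0003, PR10.3 stood apart with 259 RPKM, PR10.8 with 3.05 RPKM and EDS1 with 30.9 RPKM. The PR10.3 neighbours LOC100261887 (92.7 RPKM), LOC100256795 (99.9 RPKM), LOC100251668 (11.7 RPKM) and LOC100246525 (21.4 RPKM) stood apart in the same library.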

How the results depend on the processing

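No tested result of PR1 or PR10.3 was called under any alternative run, except the node 2 contrast without 1 library, given in the report. After quantile normalization, the PR1 inflorescence slope was -0.12, its line difference -0.050 and its inflorescence minus tendril slope -0.31. With a pseudocount of 5, inflorescences minus tendrils came to 6.49 for PR1 and 3.08 for PR10.3, and leaves minus tendrils for PR10.3 to 3.73. The list count in inflorescences over tendrils was then 6, where 4091 of all genes were called higher.

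The replicate block left the inflorescence slopes at 0.21 and -0.64. It moved inflorescences minus tendrils to 5.52 and 2.12 and the PR10.3 difference of inflorescences and leaves to -2.13 (-1.92 for PR1), the value in 06C021V0046 alone, and the list count in inflorescences over tendrils to 0. With it the inflorescence minus tendril differences of PR-1, PR10.8, CHI4D and CHI1B were -0.64, -0.076, -0.067 and -0.64, and leaves minus tendrils for PR10.5 was 0.011. It ended the 10 named calls between inflorescences and tendrils, and of 8 between leaves and tendrils 4 held in every alternative. With only tendril and leaf libraries, the list count in leaves over tendrils was 4, where 239 of 19761 genes were called higher. The list count of the line difference was 0 without the filter, with all 11 libraries or without a node term. Those fits called 11, 88 and 13 genes in all, against 3892 in the main fit.

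Without 1 library at a time, PR1 values ran from -0.13 to 0.35 (inflorescence slope), -0.21 to 0.41 (tendril slope), -0.22 to 0.43 (their difference), -0.084 to 0.54 (lines), -0.76 to 1.72 (line slopes) and -1.24 to -0.48 (node 2). PR10.3 values ran from -1.09 to 0.12, -0.57 to 0.68, -1.31 to 0.068, -1.86 to -0.34, 0.27 to 2.77 and -1.67 to -0.43 in that order, and inflorescences minus leaves from -2.06 to -0.088 for PR1 and -1.54 to 0.12 for PR10.3. PR-1 ran from -0.22 to 0.44 between inflorescences and tendrils, and leaves minus tendrils from -0.12 to 0.065 for PR10.5 and -0.21 to 3.27 for PR10.7. List counts ran from 4 to 10, 8 to 10 and 5 to 8 in the organ comparisons, 1 to 6 for rising nodes and 0 to 2 between lines. Without the 4 listed genes that passed the filter through 1 organ alone, chosen after seeing the data, the count for rising nodes was 2. The causes were not tested. Tendril values of PR10.3 rest on 8 to 14 reads, which limits any order among tendril nodes. Descriptions of proteins and promoters were not run, since no sequence was used here.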

Other observations

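Among the listed genes, CHI1B, CHI4D, chit1a, PR10.2 and PR10.8 were highest among inflorescences in node 1 of 06C008V0003, where PR10.3 peaked. TL3, PR10.4, PR10.5, PR10.6, PR10.7, PR10.9, CHI4C and G1 were highest in node 3 of 06C021V0046, where PR1 peaked. PR10.4, PR10.5, PR10.6 and PR10.9 had 12, 92, 23 and 15 reads there, against 9, 73, 13 and 11 in node 3 of 06C008V0003. The counting intervals of each pair overlapped. The share of all genes that peak in each library was not computed, so no excess of listed genes can be read from this. In node 1 of 06C008V0003, the chitinase CHI1B had 67.2 RPKM against 12.5 to 44.6 in the other 5 inflorescence libraries, and EDS1 had 30.9 RPKM against at most 16.6. CHI4D had 12.2 RPKM there and 11.1 RPKM in node 3 of 06C021V0046, against 0.932 to 3.52 RPKM in the other 4. In node 1 of 06C008V0003 PR1 had 823 RPKM, below 855 and 1609 RPKM in nodes 1 and 3 of 06C021V0046. In the same library, CHI4C with 0.718 RPKM and PR10.7 with 188 RPKM had their lowest inflorescence value. PR-1, PR10.4 and PR10.5 were also lowest there, but on 2 reads each, which is within counting error of other inflorescence libraries. PR10.6 had its lowest value of 0 in 2 libraries, this one among them.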
